A study of Mus musculus with 2 samples.

Results

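The hedgehog pathway genes described here are 9 mouse genes, Shh, Ptch1, Hhip, Boc, Smo, Sufu, Gli1, Gli2 and Gli3, among 21911 named protein-coding genes of the annotation. They were taken by name, and their open chromatin was read in 2 ways. Promoter peaks overlap a window of 1000 bp either side of an annotated start of the gene, whatever the type of transcript. Distal peaks are centred in the gene body or within 50 kb of either end, and over 1000 bp from the start of any protein-coding transcript. The tissue was healthy midbrain of strain B6NCrl embryos at day 14.5, pooled from males and females, with no treatment or allele given in the labels. DNase-seq finds open chromatin by the cuts that DNase I makes there, and each peak is a short stretch with many cuts. The 2 biological replicates form 1 group and are registered as different biosamples with the same donor entry. Whether they come from separate pools of embryos is not stated, so technical and biological differences between them cannot be told apart. With 1 tissue and 1 age, the data allow no comparison between conditions, and the members are set beside all genes or all peaks.

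In the hedgehog pathway a secreted ligand, Shh, binds the receptor Ptch1, which otherwise holds the membrane protein Smo inactive at the primary cilium. Active Smo frees the GLI zinc finger factors from their inhibitor Sufu, and they then switch their target genes on. Gli1 and Gli2 act mainly as activators and Gli3 mainly as a repressor. Ptch1, Hhip and Gli1 are themselves targets of the pathway, while Boc, a co-receptor, is lowered by it. In the embryonic midbrain Shh comes from the floor plate and patterns the ventral side, including the progenitors of dopaminergic neurons.

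The replicates stood apart in how much was called. Replicate 1 held 710176 peaks with a median value of 6 and replicate 2 held 267958 with a median of 51, on the authors' scale of whole numbers up to 150, and read depth is unknown. Shared peaks, which overlap between the replicates by at least 1 bp, numbered 171429, which is 24.7% of the replicate 1 list and 64.0% of the replicate 2 list. Unless a single replicate is named, results use shared peaks, described by the replicate 2 interval, and values are compared only within a replicate. A shared promoter peak was found at 5 of 5 midbrain genes (En1, En2, Pax5, Otx2 and Pax7). The same held for 2 of 2 neuronal genes and 2 of 2 progenitor genes, against 0 of 3 genes of other tissues (Alb, Hbb-bt and Ins2). Over all named protein-coding genes 69.0% had one, so a peak at a listed gene does not by itself mark the tissue. The tissue is a mixture of cells, and a weak peak in many cells cannot be told apart from a strong one in few.

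Every member had a shared promoter peak, 9 of 9, beside 69.0% of all named protein-coding genes. Members with 3 or more such peaks numbered 8, Smo with 2 being the exception, beside 27.3% of all genes. Peaks at non-coding starts and at the edge of a window count here, for members and all genes alike. At Sufu 2 of the 3 lay near a non-coding start, 86.2 and 87.1 kb into the gene. They had 17 and 18 in replicate 1 and 60 and 58 in replicate 2. At Shh 1 of the 3, centred 1046 bp from the start, had 10 and 36. The 9 genes held 38 shared promoter peaks, from 2 at Smo to 9 at Ptch1, and had from 1 annotated start (Shh and Boc) to 10 (Ptch1), so that their promoter windows differ in total length. By the mean percentile rank of its strongest promoter peak over both replicates, Sufu stood above 89.4% of the genes that have a shared promoter peak, Ptch1 above 52.4% and Gli2 above 49.1%. The other 6 members lay lower, from Hhip above 19.2% to Smo above 38.8%. The median strongest promoter peak of all genes with one had a value of 91 in replicate 1 and 137 in replicate 2.

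**Figure D1:**
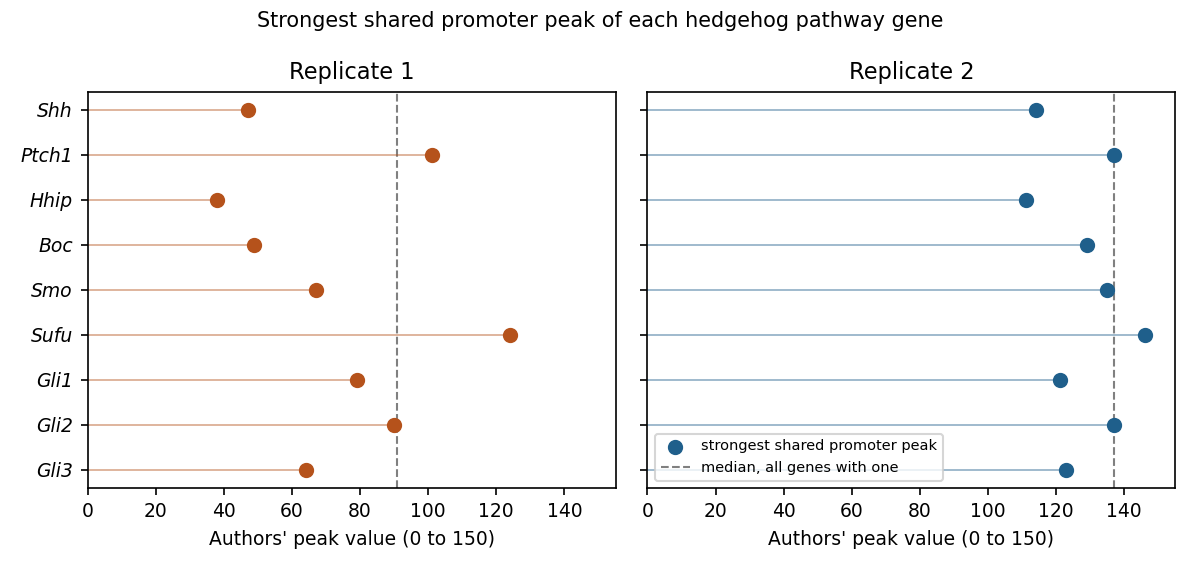
Authors' value of the strongest shared promoter peak of each member (points, whole numbers up to 150), replicate 1 on the left and replicate 2 on the right; the dashed lines are the medians over all genes with a shared promoter peak, 91 and 137. Sufu has the highest value in both replicates, 124 and 146, and Hhip the lowest, 38 and 111.

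Shh, the ligand, lies on the minus strand of chromosome 5 (28456815 to 28467256, mm10) and is 10.4 kb long. Its strongest promoter peak had a value of 47 in replicate 1 and 114 in replicate 2 and is centred in the 5′ UTR part of exon 1, 386 bp from the start. A neighbouring promoter peak in the same exon had 39 and 103. The Shh promoter ranked above 21.8% of genes with a shared promoter peak, the second lowest of the members after Hhip.

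The gene body of Shh was dense in distal peaks. It held 13 shared distal peaks, 12.4 per 10 kb of body, above 99.9% of the 17779 genes of 5 kb or more, whose median was 0.313. Of these, the peaks centred 1046 and 1146 bp from the start overlap each other and match the same replicate 1 peak. The one at 1046 bp is also a promoter peak. Both, and those at 1466, 1686 and 2106 bp, lie within 2500 bp of the start. Whether the rank of the body holds without them was not tested. Intron 1 (4.9 kb) held 7 and intron 2 (2.7 kb) held 4. The strongest was in intron 1, 2106 bp from the start, with a value of 61 in replicate 1 and 126 in replicate 2, above 97.3% of all shared distal peaks and above the gene's own promoter peaks in both replicates. A peak 5405 bp beyond the 3′ end had 63 and 110, and a peak in the coding part of exon 3 had 36 and 101. In intron 2, which in mouse is known to carry a midbrain enhancer of Shh, the peaks had 16, 17, 24 and 31 in replicate 1 and 71, 68, 88 and 84 at the same sites in replicate 2. All 4 lay inside a single replicate 2 hotspot, a wider accessible region, of 2214 bp, which is wider than 98.5% of the hotspots of that list. No hotspot of Shh in replicate 1 was wider than 637 bp.

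The intronic Shh sequences are printed because Shh had more distal peaks per kb of body than any other member. They are the strongest of intron 1 and the 2 strongest of intron 2, from RefSeq's GRCm38.p6 sequence and in the direction of the gene, with no part marked.
Shh intron 1, chr5:28465076-28465225, minus strand: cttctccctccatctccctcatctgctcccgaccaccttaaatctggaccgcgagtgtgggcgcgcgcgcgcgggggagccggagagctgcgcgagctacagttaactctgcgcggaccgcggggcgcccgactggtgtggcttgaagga
Shh intron 2, chr5:28459576-28459725, minus strand: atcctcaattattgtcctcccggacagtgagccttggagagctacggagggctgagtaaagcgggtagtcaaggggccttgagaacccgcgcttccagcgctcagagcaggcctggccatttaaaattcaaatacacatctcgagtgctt
Shh intron 2, chr5:28459896-28460045, minus strand: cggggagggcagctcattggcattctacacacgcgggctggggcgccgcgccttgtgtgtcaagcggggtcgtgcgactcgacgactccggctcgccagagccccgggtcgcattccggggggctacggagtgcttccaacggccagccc
The GC content of these peaks was 67.3%, 53.3% and 70.7%, beside a median of 51.3% over the members' distal peaks and 49.3% over all shared distal peaks. None held the GLI motif GACCACCCA, even with 1 mismatch, and no other distal or promoter peak of Shh did either.

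**Figure D2:**
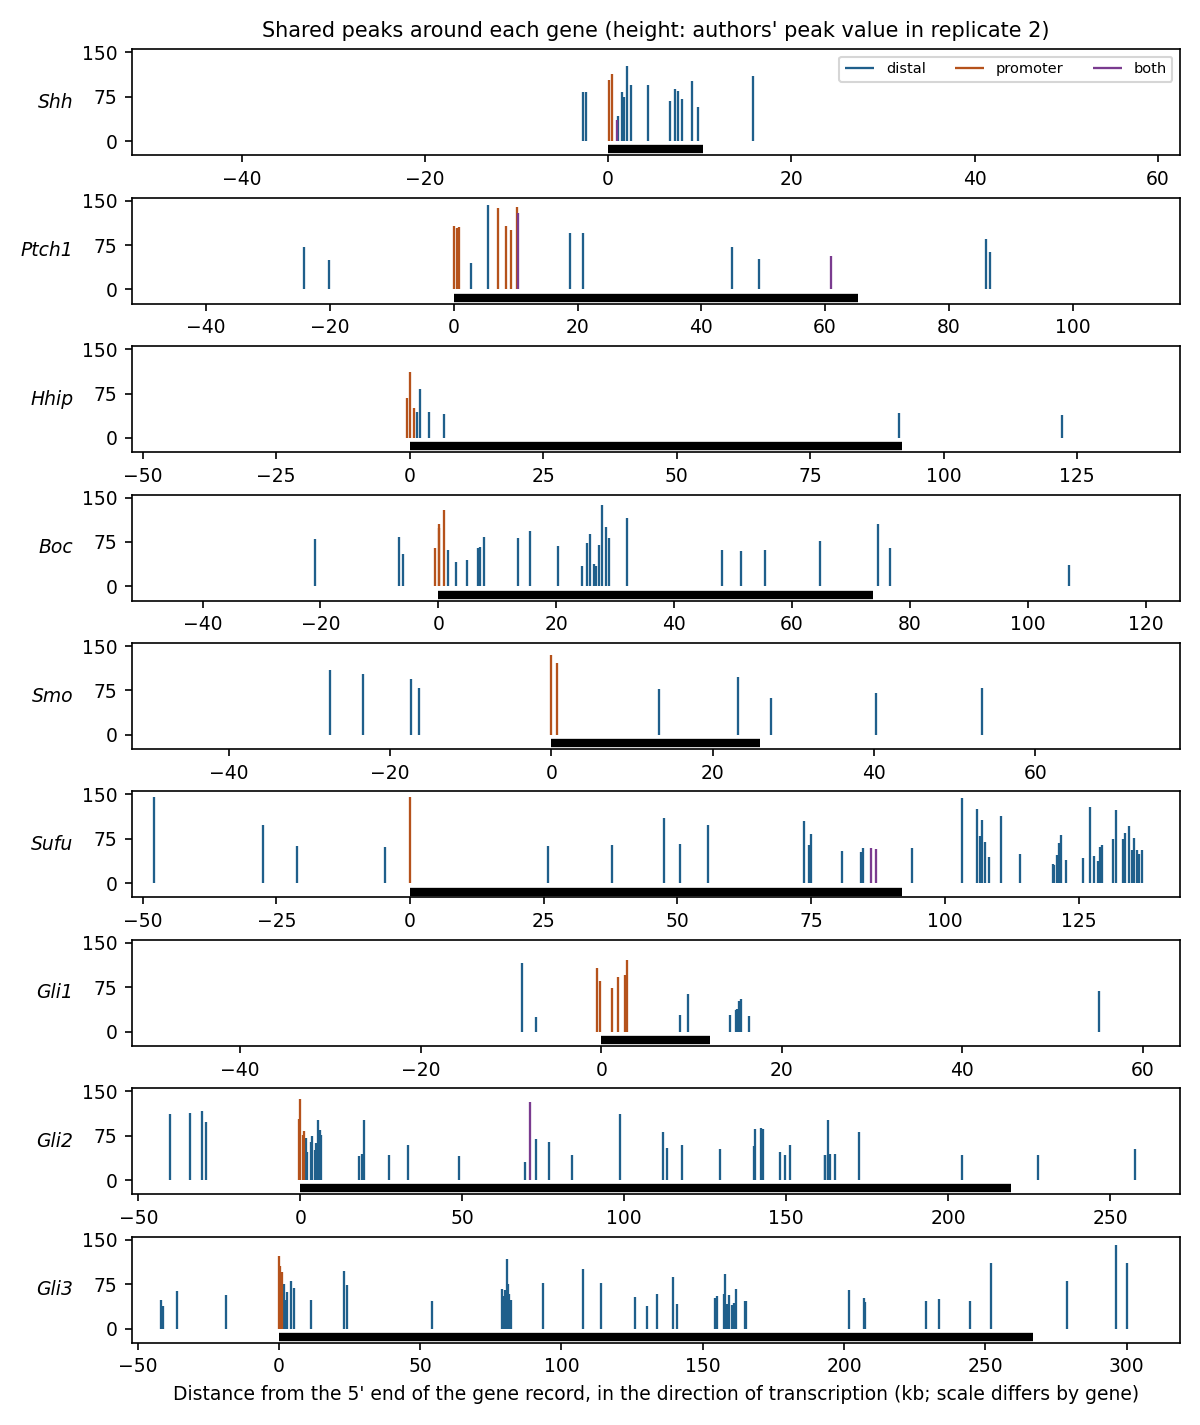
Shared peaks of the 9 members by distance from the 5′ end of the gene (kb, in the direction of transcription; the scale differs by gene), with height the authors' value in replicate 2 and the black bar the gene body; orange is promoter, blue distal, and purple the 6 peaks that are promoter to a non-coding transcript start or to the edge of a window and also distal. Shh carries its peaks within and next to a short body, whereas those of Sufu pile up beyond its 3′ end.

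Ptch1, the receptor of Shh, lies on the minus strand of chromosome 13 (63508328 to 63573598) and has 10 annotated starts, spread over the gene. It had 9 shared promoter peaks. The strongest, 635 bp upstream of the start of the transcript Ptch1-201 and in intron 1 of the longer transcripts, had a value of 101 in replicate 1 and 137 in replicate 2. A second peak in intron 2 had 81 and 139, and the peak at the outermost start had 54 and 107. The widest replicate 2 hotspot of Ptch1 covered 4383 bp around its inner starts and held 9 replicate 2 peaks.

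The strongest distal peak of Ptch1, chr13:63567976-63568125, lay in the same intron, 2315 bp upstream of the Ptch1-201 start. It had 110 in replicate 1 and 143 in replicate 2, above 99.8% of all shared distal peaks. Next came a peak of intron 2 with 64 and 130, which is also a promoter peak of a shorter transcript, and another peak of intron 2 with 48 and 95. Ptch1 had 12 shared distal peaks, 7.26 per 100 kb of window, above 67.4% of genes, from 91 distal peaks in replicate 1 and 21 in replicate 2. With nearest starts taken over protein-coding transcripts alone, here and below, 7 of the 12 were nearest to a Ptch1 start. The other 5, from intron 15 to beyond the 3′ end, were nearer to a protein-coding start of Fancc, although non-coding starts of Ptch1 also lie in that part of the gene.

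Exact copies of the GLI motif were found in 2 of the 38 member promoter peaks, both at Ptch1, beside 0.113% of all 35384 shared promoter peaks of named protein-coding genes. One was in the strongest promoter peak and the other in the peak at the outermost start, whose values were given above. With up to 1 mismatch the motif was in 9 of the 38 (23.7%), 4 of them at Ptch1, 3 at Gli1 and 1 each at Gli2 and Sufu, beside 3.18% of all promoter peaks. Member promoter peaks had a median GC content of 62.4% and all promoter peaks 60.7%. The motif was searched as GACCACCCA on both strands, and a match describes the letters and not a bound site.

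The exact copies at Ptch1 are shown in capitals, in the direction of the gene, from RefSeq's GRCm38.p6 sequence, with 1 copy that has a mismatch. Other Ptch1 peaks with 1 mismatch are not printed, among them the intron 2 promoter peak with 81 in replicate 1 and 139 in replicate 2. The peak at the outermost start covers 5′ UTR and the first coding bases, and its motif lies in the 5′ UTR, so only 29 bases around the motif are given, and the last sequence holds a copy with 1 mismatch in intron 2.
Ptch1 strongest promoter peak, chr13:63566296-63566445, minus strand: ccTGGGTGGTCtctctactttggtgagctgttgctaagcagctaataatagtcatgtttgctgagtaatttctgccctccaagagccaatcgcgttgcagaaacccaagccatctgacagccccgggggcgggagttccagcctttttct
Ptch1 5′ UTR motif, chr13:63573455-63573483, minus strand: tggcgcggcaGACCACCCAcgccgagggc
Ptch1 intron 2, chr13:63563076-63563225, minus strand: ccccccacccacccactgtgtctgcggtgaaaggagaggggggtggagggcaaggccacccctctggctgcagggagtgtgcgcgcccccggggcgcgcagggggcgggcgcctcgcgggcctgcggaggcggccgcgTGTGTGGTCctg
In the strongest promoter peak the motif sits at the edge of the 150 bp, at 63566435 to 63566443, and reads TGGGTGGTC on the strand of the gene. The 5′ UTR copy, at 63573465 to 63573473, reads GACCACCCA on that strand.

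Hhip encodes a membrane protein that binds and traps hedgehog ligands. It lies on the minus strand of chromosome 8 (79965851 to 80058006). Its strongest promoter peak, 44 bp upstream of the start and reaching into the 5′ UTR, had a value of 38 in replicate 1 and 111 in replicate 2, the lowest of the members in both. By shared peaks Hhip was the only member below the median of all genes for distal peaks, with 6 in its window, 3.12 per 100 kb, above 32.6% of genes. Its lists overlapped little, with 20 distal peaks in replicate 1 and 17 in replicate 2, of which 35.3% were shared. Replicate 2 alone put its 17 above the all-gene median of 11, and replicate 1 alone put its 20 below that of 22. Of the 6, 4 were in intron 1 within 6.4 kb of the start, the strongest of these with 36 and 82, above 76.4% of all shared distal peaks. The others in intron 1 that rank next had 15 and 44 and 13 and 40 in replicates 1 and 2. The rest of the 92.2 kb gene held 1 shared distal peak, in exon 13.

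Boc, the co-receptor, lies on the minus strand of chromosome 16 (44485049 to 44558897). Its strongest promoter peak, in intron 1 at 867 bp from the start, had 49 in replicate 1 and 129 in replicate 2. The promoter ranked above 28.8% of genes, but the gene was rich in distal peaks, with 29 in the window, 16.7 per 100 kb, above 96.5% of genes, from 101 in replicate 1 and 48 in replicate 2. Of these, 19 were in intron 1 of 37.1 kb. The strongest, 27.8 kb from the start, had 95 and 137, above 99.5% of all shared distal peaks and above the promoter in both replicates. Another in intron 1, 32.0 kb from the start, had 61 and 116, and a peak 759 bp beyond the 3′ end had 71 and 105. Of the 29 peaks, 28 were nearest to the Boc start.

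Boc intron 1 also held the single exact GLI motif among the 226 distal peaks of the members, 0.442% (95% exact binomial interval 0.0112 to 2.44%, counting error only), beside 0.115% of all 140418 shared distal peaks. The motif spans 44552156 to 44552164, in a peak centred 6707 bp from the start with a value of 15 in replicate 1 and 65 in replicate 2. With up to 1 mismatch there were 9 member distal peaks (3.98%, interval 1.84 to 7.42%), beside 2.56% of all shared distal peaks. Among them were 3 at Sufu, 2 at Ptch1, 2 at Boc and 1 each at Smo and Gli3. The Ptch1 peak of intron 2 and the Sufu peak of intron 11 are also promoter peaks and count in both sets. The exact copy counted 1 among 322 replicate 2 distal peaks of the members and 3 among 961 of replicate 1. The Boc peak is given with the motif in capitals, in the direction of the gene, from RefSeq's GRCm38.p6 sequence.
Boc intron 1, chr16:44552116-44552265, minus strand: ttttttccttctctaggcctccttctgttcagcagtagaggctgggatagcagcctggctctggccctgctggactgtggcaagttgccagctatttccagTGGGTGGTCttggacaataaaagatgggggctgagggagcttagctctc

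Smo, the membrane protein that carries the signal inward, lies on the plus strand of chromosome 6 (29735503 to 29761365). Its strongest promoter peak, 13 bp upstream of the gene's outermost start, had 67 in replicate 1 and 135 in replicate 2, above 38.8% of genes with one. There were 9 shared distal peaks, 7.15 per 100 kb, above 66.7% of genes, from 23 in replicate 1 and 16 in replicate 2. Of the 9, 3 were nearest to the Smo start. The strongest by rank had 40 and 110 and the next 44 and 103, both within the body of the neighbour Tspan33. Inside Smo there were 2, of which the stronger, in intron 9, had 43 and 97.

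Sufu, which binds and restrains the GLI factors, lies on the plus strand of chromosome 19 (46396896 to 46488804) and had the highest promoter value of the members, 124 in replicate 1 and 146 in replicate 2, in a peak 26 bp upstream of its outermost start. Its window held 48 shared distal peaks, 25.0 per 100 kb, above 99.3% of genes, from 179 in replicate 1 and 59 in replicate 2. A window of 20 kb either side held 22. Of the 48, 4 (8.33%) were nearest to a protein-coding start of Sufu, which also has non-coding starts inside its body, and 31 lay beyond the 3′ end, in a stretch with Trim8 and Arl3. The strongest distal peak was 47886 bp upstream, within the overlapping neighbours Mfsd13a and 2310034G01Rik (104 and 145). It lay 1292 bp from a protein-coding start of 2310034G01Rik and overlapped coding sequence. The next 2 were downstream, 1752 bp from a Trim8 start (118 and 144) and 35166 bp beyond the Sufu end (80 and 128). The widest replicate 2 hotspot in the window, 5813 bp with 11 replicate 2 peaks, was centred 41739 bp beyond the end. Within the Sufu body there were 13 distal peaks, 1.41 per 10 kb, above 88.7% of genes.

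Gli1, an activator whose own expression is widely used as a readout of hedgehog signalling, lies on the minus strand of chromosome 10 (127329882 to 127341974). It had 6 shared promoter peaks. The strongest was not at the outermost start but in intron 2 of Gli1-201, 909 bp downstream of the start of the shorter protein-coding transcript Gli1-202, with 79 in replicate 1 and 121 in replicate 2. The highest at the outermost start, 516 bp upstream of it, had 46 and 108. GLI motifs with 1 mismatch were in 3 of the 6, all in intron 2, reading GATCACCCA, GCCCACCCA and GACCACCCT. The values of these 3 peaks were 29, 22 and 18 in replicate 1 and 95, 92 and 74 in replicate 2.

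Shared distal peaks at Gli1 were 11, 9.81 per 100 kb, above 82.1% of genes, from 26 in replicate 1 and 14 in replicate 2, in a window shared with 8 other genes. Of the 11, 2, both in the body, were nearest to a protein-coding start of Gli1, and 6 lay in the body of Arhgap9. The strongest, within Inhbe and 8836 bp upstream, had 41 and 116, above 92.4% of all shared distal peaks. The next had 22 and 69 within Mbd6, and 24 and 63 in intron 12 of Gli1.

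Gli2, an activator needed for the floor plate response in mouse, lies on the minus strand of chromosome 1 (118834132 to 119053619) and spans 219.5 kb. Its strongest promoter peak, 51 bp upstream of the start, had 90 in replicate 1 and 137 in replicate 2. The window held 45 shared distal peaks, 14.1 per 100 kb, above 93.8% of genes, with 15 in intron 1 and 20 in intron 2, from 121 in replicate 1 and 64 in replicate 2. The strongest was in intron 2, 71.0 kb from the start, with 72 and 132, above 98.7% of all shared distal peaks, and it overlaps the start of the non-coding transcript Gli2-202. Upstream peaks at 34131 and 30191 bp had 69 and 114 and 57 and 116 in replicates 1 and 2. Nearly all, 43 of 45, were nearest to a protein-coding start of Gli2.

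Gli3, mainly a repressor, lies on the plus strand of chromosome 13 (15463235 to 15730026) and is the longest member at 266.8 kb. Its strongest promoter peak, 55 bp inside the gene record, had 64 in replicate 1 and 123 in replicate 2. It had the most shared distal peaks of the members, 50, or 13.6 per 100 kb, above 93.1% of genes, with 6, 10, 8, 11 and 6 of them in introns 1, 2, 3, 4 and 10. The strongest lay 29304 bp beyond the 3′ end and had 86 and 142, above 99.7% of all shared distal peaks. A second downstream peak, at 33164 bp, had 57 and 111, and the strongest inside the gene, in intron 2, had 56 and 117. None of these 3 distal peaks held a GLI motif, even with 1 mismatch.

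By the ratio of distal peak counts between the replicates, Gli3 was the highest of the members. Its window held 368 distal peaks in replicate 1 and 64 in replicate 2, a ratio of 5.75, above 95.6% of the 12529 genes with 10 or more replicate 2 distal peaks, whose median ratio was 1.83. Ptch1, on the same chromosome, had 91 and 21, a ratio of 4.33, and over all of chromosome 13 the ratio of distal peaks was 3.03. The other members ran from 1.18 at Hhip to 3.03 at Sufu. By the share of peaks in common the order was another, with 13.6% of replicate 1 and 78.1% of replicate 2 distal peaks shared at Gli3, 13.2% and 57.1% at Ptch1, and 35.0% and 35.3% at Hhip. Of the 318 replicate 1 distal peaks of Gli3 that were not shared, 63.8% had a value of 5 or less, beside 63.7% of all unshared replicate 1 distal peaks. In replicate 1, 45.8% of the Gli3 hotspots stood at the cap of 100 on the −log10 q scale, beside 21.3% of all hotspots, and in replicate 2 26.7% beside 36.7%. Smo and Sufu were nearly as high in replicate 1, with 42.9% and 41.1%, at count ratios of 1.44 and 3.03. The cause was not tested.

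Across the members the median was 16 shared distal peaks, beside 7 over all genes. Member genes were long, with a median of 73.8 kb beside 17.4 kb. Per 100 kb of window the median was 13.6 beside 5.02, with a range from 3.12 (Hhip) to 25.0 (Sufu). Of the 9 members, 8 lay above the all-gene median. At Sufu only 4 of the 48 peaks counted were nearest to a protein-coding start of Sufu. In descending order of density the members were Sufu, Boc, Shh, Gli2, Gli3, Gli1, Ptch1, Smo and Hhip, but neighbours such as Shh with 14.5, Gli2 with 14.1 and Gli3 with 13.6 are close, and no error can be given for their order from 2 lists of such different length. Peaks of replicate 2 alone gave a median of 21 beside 11 over all genes, and those of replicate 1 alone 91 beside 22. Counting only peaks whose nearest protein-coding start is the gene's own gave 7 beside 2, and only those over 2500 bp from a start 10 beside 5.

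**Figure D3:**
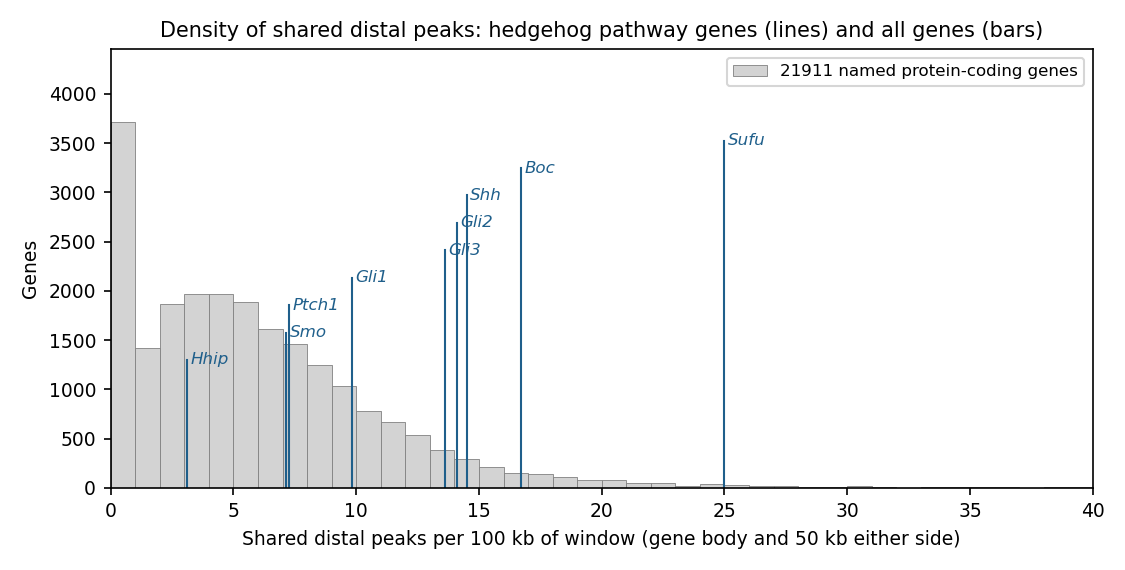
Number of named protein-coding genes (bars) by shared distal peaks per 100 kb of window, with the 9 members as lines whose height carries no value; the axis ends at 40. By shared peaks Hhip, at 3.12, is the only member below the all-gene median of 5.02 (in replicate 2 alone it had 17 distal peaks beside a median of 11). Sufu, at 25.0, is the highest, with 4 of its 48 peaks nearest to a protein-coding start of Sufu.

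The 226 distal peaks of the members were distinct, and 142 of them (62.8%) lay in introns of the longest coding transcript, 53 downstream, 26 upstream and 3 in exons, while 2 were in the body outside that transcript. A start of the member itself was the nearest protein-coding start for 156 (69.0%). Their values were near those of all shared distal peaks, with a median of 18 beside 18 in replicate 1 and 65 beside 60 in replicate 2. By their median rank the members differed among themselves. The median distal peak of Smo stood above 75.6% of all shared distal peaks and that of Shh above 73.7%, while that of Hhip stood above 21.4% and that of Gli1 above 5.22%.

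Consensus motifs in the distal peaks were mostly at shares near those of all shared distal peaks. The SOX motif ACAAAG, read by progenitor factors such as Sox2, was in 13.3% of member peaks beside 15.7% of all. The E-box CAGCTG, bound by neural bHLH factors, was in 19.0% beside 15.2%, and the homeodomain motif TAATTA in 3.98% beside 5.75%. The exact letters AGGGGGCGC, from the CTCF core, were in 0.442% beside 0.823%. Only these exact letters were searched, so sites of the same factors with other letters, CTCF sites among them, were not counted. Farther from the whole were the TEAD motif GGAATG, in 33 of 226 or 14.6% (95% exact binomial interval 10.3 to 19.9%) beside 9.12%, and the SP/KLF motif GGGCGG, in 21 or 9.29% (5.84 to 13.9%) beside 5.57%. The POU motif ATGCAAAT was in 0 of 226 (interval up to 1.62%) beside 2.07% of all. These shares have no test across libraries, peaks of 1 gene share their surroundings, and 16 motifs were searched on both strands. Of the 21 SP/KLF peaks, 9 were at Sufu, and of the 33 TEAD peaks, 10 were at Gli3.

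**Figure D4:**
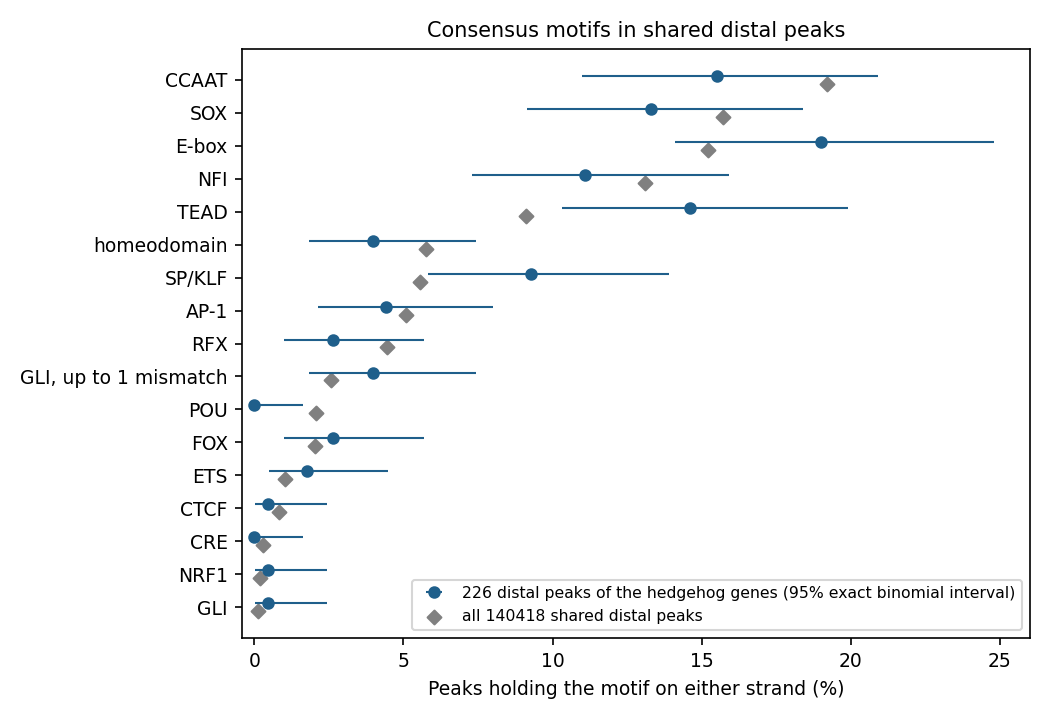
Share of distal peaks holding each consensus motif on either strand (%), for the 226 shared distal peaks of the members (blue points with 95% exact binomial intervals) and for all 140418 shared distal peaks (grey diamonds). TEAD and SP/KLF lie above and POU below the share in all peaks by more than the interval; for the other motifs the share in all peaks lies within it.

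Most members had more CpG dinucleotides around their start than the median gene, and starts rich in CpG are a feature of broadly used promoters. Within 500 bp of the 5′ end the median was 58 CpG in members, beside 41 in all genes and 8 in genes without a shared promoter peak. Gli3 had 110, above 95.8% of genes, and Shh had 35, above 45.7%. The rest stood above 56.3 to 71.0% of genes. All members have a shared promoter peak, and no median over the genes with one is given here. Of the RefSeq promoter sequences (GRCm38.p6, 250 bases before to 50 after a start), 6 of the 9 members could be matched. Of these 6, 5 held the SP/KLF motif, beside 35.6% of all 32817 promoters. SP/KLF was 1 of 16 motifs searched, and the CCAAT motif was in 1 of the 6 beside 37.4%. The exact GLI motif was in 0 of the 6, beside 0.253% of all. For any of the motifs, and most of all at so low a share, 6 sequences say little. The Ptch1 sequence, 63565686 to 63565985, covers neither exact copy found in the Ptch1 peaks, and Shh, Boc and Gli1 were not matched.

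The other genes of the pathway were taken from a list of 33 that runs from ligand processing to degradation and target genes. All 33 had a shared promoter peak, beside 69.0% of all genes, and 28 had a distal density above the all-gene median, with a list median of 9.64 per 100 kb. The strongest promoter peak of Shh, with 47 in replicate 1 and 114 in replicate 2, was above those of the sister ligands Ihh, with 15 and 68, and Dhh, with 13 and 51. Among genes that process or release the ligand, the highest and lowest were Scube1 with 101 and 141 and Scube2 with 30 and 106. Among receptors and co-receptors the co-receptor Cdon, a relative of Boc, had 95 and 147 and the multiligand receptor Lrp2 38 and 108.

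For the genes of the cilium and relay, Ift88, a part of the transport along the cilium, had 97 and 140 and Gpr161, a ciliary receptor that restrains the pathway, 39 and 91. For the kinases and degradation factors, which mark GLI proteins for processing, the ubiquitin ligase part Btrc had 127 and 148 and Spop 106 and 134. Of the target genes, Mycn, a driver of progenitor division, had 109 and 143, and the floor plate factor Foxa2 19 and 72. Foxa2 had a promoter peak above only 7.02% of genes, but 22.1 shared distal peaks per 100 kb, above 98.8% of genes. Among members, Shh, Boc and Gli3 had promoter peaks above 21.8%, 28.8% and 29.2% of genes, and distal densities above 94.4%, 96.5% and 93.1%. The other members differed, with Hhip low on both (19.2% and 32.6%) and Sufu high on both (89.4% and 99.3%). Of the 48 distal peaks in the Sufu window, 4 were nearest to a protein-coding start of Sufu. Gli1, Smo, Gli2 and Ptch1 had promoter peaks above 30.0%, 38.8%, 49.1% and 52.4%. Their distal densities stood above 82.1%, 66.7%, 93.8% and 67.4%.

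**Figure D5:**
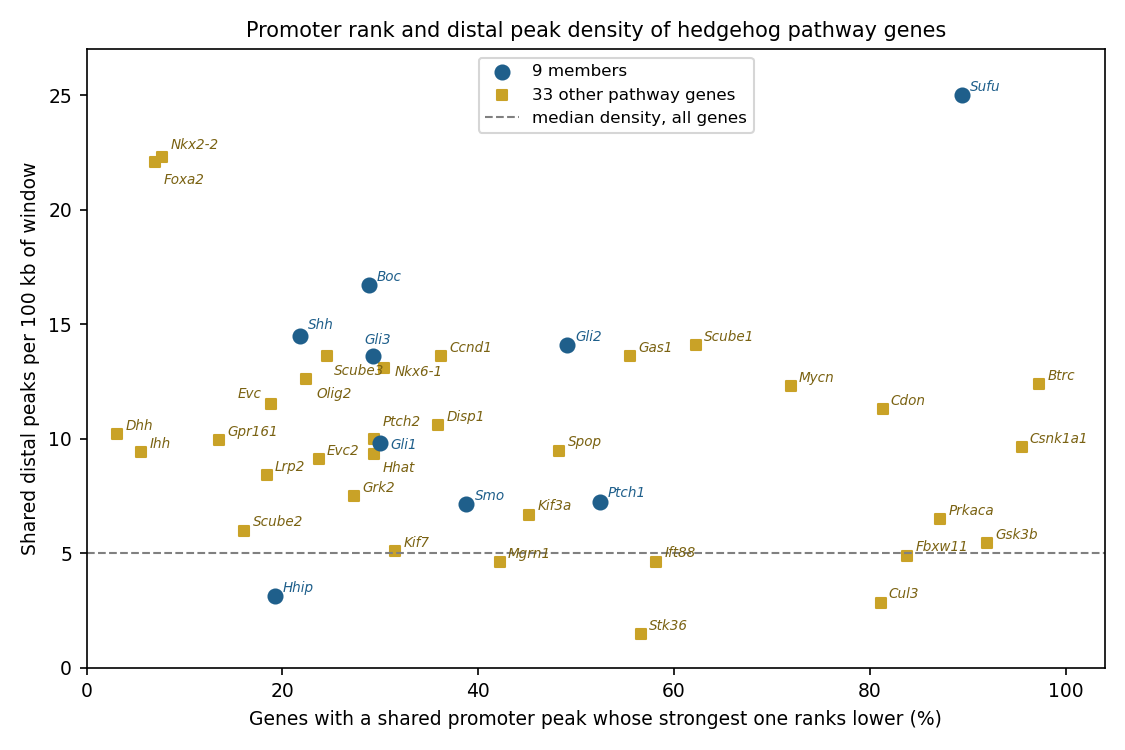
Rank of the strongest shared promoter peak (percent of genes with one that rank lower) against shared distal peaks per 100 kb, for the 9 members (blue circles) and 33 other pathway genes (yellow squares); the dashed line is the all-gene median density, 5.02. Sufu is high on both scales, Foxa2 and Nkx2-2 are low on the first and high on the second, and Hhip is low on both. Of the 48 distal peaks counted at Sufu, 4 were nearest to a protein-coding start of Sufu.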

How the data were processed

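DNase-seq had been run on 2 replicates of 1 group, and per the labels the coordinates are on mm10. The authors deposited, for each replicate separately, peaks of 150 bp (a few are narrower) with a whole-number score of unstated scaling, and hotspots with a −log10 q value between the threshold at q = 0.05 and a cap of 100. No aligner, caller or version is given in the labels or file headers.

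From these, peaks were matched between replicates, assigned to genes of GENCODE mouse release M21 and ranked within each replicate. Sequence was GRCm38.p6, in which 99.9% of 5926 sampled start codons read ATG, and 0 peaks ran past a chromosome end. Density is shared distal peaks per 100 kb of window. A percentage of genes or peaks that a value stands above is the share with a lower value. Motifs were exact matches unless a mismatch is named. No test was run, since the design holds 1 group. Scripts were tested on simulated data and ran in Python 3.11.15 with pandas 2.3.3, numpy 2.4.6, matplotlib 3.10.9 and scipy 1.17.1. Named were all members, their strongest promoter peak and 3 strongest distal peaks, the strongest in Shh introns, every peak with an exact GLI motif and, per role of the other pathway genes, those with the highest and the lowest promoter rank. Peaks and genes named beyond that were chosen after their values were seen. Another gene of the pathway list is not reported here. The members and lists were chosen with earlier results of these data known.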

Additional observations from a re-analysis of the deposited data

How the results depend on the processing

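All 9 members had a promoter peak under each alternative tried: either replicate alone, the strongest replicate 1 peaks only, an overlap of 75 bp, promoter windows of 500 and 2000 bp, gene 5′ ends alone, and hotspots in place of peaks, with 64.3 to 75.8% of all genes. The median of 16 distal peaks ranged from 21 to 91 with a single replicate, and was 10 beyond 2500 bp and 7 for nearest own starts. The cause was not tested. It stayed between 12 and 22 with an overlap of 75 bp, windows of 20 and 100 kb, the strongest replicate 1 peaks, and, added after seeing the data, the starts of every transcript and merged peaks. Distal peaks with a GLI motif were 9 with 1 mismatch, 3 in windows of 300 bp, and 1 to 3 with a single replicate. Single-gene counts were within 1.5 times for 9 of 9 members at 75 bp, 8 at 20 kb, 6 at 100 kb, 5 in replicate 2 alone and 0 in replicate 1 alone. No paired analysis was possible because there is 1 group.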

Other observations

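Upstream of Shh lies a long stretch without protein-coding genes, in which distant brain enhancers of Shh are known in mouse. The window of 50 kb covers only its beginning, so the rest was looked at separately, a choice made after the values near Shh were seen. The next such gene upstream, Rnf32, is 729 kb away. Between them and beyond 50 kb there were 17 shared distal peaks, 2.5 per 100 kb, beside 14.5 per 100 kb in the window of Shh itself and a median of 5.02 over the windows of all genes. Those windows differ in kind from the stretch, since they hold gene bodies and the surroundings of starts. No other stretch without protein-coding genes was measured here. The 100 kb bin with the most, from 400 to 500 kb upstream, held 5. A single peak was in the top 10% of all shared distal peaks by rank, 393 kb upstream at chr5:28860096-28860245, with a value of 61 in replicate 1 and 108 in replicate 2. The next had 41 and 102, 570 kb upstream. None of the 17 held an exact GLI motif.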
